A study of Homo sapiens with 6 samples.

Results

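AP-1 is a transcription factor made of paired basic leucine zipper (bZIP) proteins, and the genes described here are 10 of those that encode its subunits and close relatives. They were chosen by symbol, with earlier results of these data known. They are the Jun genes JUN, JUNB and JUND, the Fos genes FOS, FOSB, FOSL1 and FOSL2, and the related ATF3, BATF3 and MAFF. All 10 were found among the 60609 gene identifiers of each file, and 9 had enough counts to be tested, FOSL1 being the exception. Their mRNA was measured by RNA sequencing in 3 STAT5B knockout (KO) and 3 wild-type (WT) libraries of HEK293, a human embryonic kidney cell line that carries adenovirus genes. The KO cells were CRISPR/Cas9 clones with both STAT5B alleles mutated, picked by sequencing and protein blot according to the labels, and both groups were grown in DMEM with 10% serum. The labels do not say how many clones or cultures the libraries came from, so p-values measure the spread between these libraries, and the mutation and the picking of clones cannot be told apart. The titles of both groups hold the word Sham and the growth protocol also speaks of GS knockout clones, and the labels explain neither, so the KO libraries are described here by their genotype label.

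Jun proteins pair with each other or with Fos proteins, whereas Fos proteins need a partner, and the pairs bind a short palindromic DNA element in promoters and enhancers. FOS, FOSB, JUN, JUNB and ATF3 are immediate early genes, which serum, growth factors and stress switch on within minutes without new protein synthesis. JUN is activated by the JNK kinases and is known to act on its own promoter. ATF3 is induced by many stresses, BATF3 lacks a transactivation domain and is best known from dendritic cells, and MAFF is a small MAF protein that pairs with CNC bZIP factors. STAT5B, the gene mutated in the KO cells, carries signals from cytokine and growth hormone receptors to the nucleus.

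Total estimated counts were 17494958 to 21099813 in the KO libraries and 17686407 to 20279181 in the WT libraries, and mitochondrial mRNAs took 1.38% to 2.43% of the counts in KO and 1.67% to 1.97% in WT. STAT5B mRNA was present in every library, at 63.1, 61.8 and 60.5 CPM (counts relative to the TMM-scaled library size) in KO and 70.1, 64.6 and 69.4 CPM in WT. Its log2 fold change of −0.14 (edgeR adjusted p = 0.0468) passed in 4 of 16 alternatives, which include a fit chosen after seeing the data. A frameshift can leave mRNA in place, so this level is no test of the knockout. All 9 markers fixed for HEK293 cells were detected, with a summed level of 1000 to 1022 TPM (a level scaled by transcript length) in KO and 1137 to 1166 TPM in WT. Most of that gap was NEFM, a neurofilament gene, with 103, 106 and 90.03 TPM in KO and 222, 238 and 232 TPM in WT. Blood cell markers summed to 3.56 to 6.96 TPM in KO and 4.57 to 6.49 TPM in WT with PTPRC, CD3E and HBB at 0. The fibroblast markers summed to 5.33 to 6.59 TPM in KO and 5.36 to 6.41 TPM in WT, and the endothelial markers stayed at or below 0.104 TPM in KO and 0.335 TPM in WT with CDH5 and TIE1 at 0.

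Promoter sequence is shown for the 4 members whose RefSeq promoter window held one of the motifs searched, because the Jun genes and ATF3 are known targets of bZIP factors themselves. RefSeq (GRCh38.p14) gave windows for 8 of the 10 members, 10 windows in all, and the 250 bases before each start were searched on both strands. The motifs were the AP-1 site TGACTCA, the cAMP response element TGACGTCA, the element of the JUN promoter TGACATCA, the STAT5 core TTCNNNGAA and the CArG box bound by serum response factor. Capitals mark the motif, with up to 50 bases on either side, 5′ to 3′ on the strand of the gene.
JUN, chr1:58784057-58784164, minus strand: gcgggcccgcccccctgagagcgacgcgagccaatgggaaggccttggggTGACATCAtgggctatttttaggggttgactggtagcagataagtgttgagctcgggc
ATF3, chr1:212565234-212565341, plus strand: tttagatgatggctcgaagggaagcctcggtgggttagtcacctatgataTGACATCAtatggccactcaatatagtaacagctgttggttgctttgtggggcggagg
JUND, chr19:18281765-18281872, minus strand: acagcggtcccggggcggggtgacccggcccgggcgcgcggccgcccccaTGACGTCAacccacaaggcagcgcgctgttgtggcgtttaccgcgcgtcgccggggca
MAFF, chr22:38201890-38201993, plus strand: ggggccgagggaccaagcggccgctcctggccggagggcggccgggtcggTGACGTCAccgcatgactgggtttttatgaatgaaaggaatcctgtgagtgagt

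JUN and ATF3 held the same letters TGACATCA, at bases −67 to −60 and −123 to −116 before the start, an element found in 2.37% of 35116 promoter windows. Because the element searched was that of the JUN promoter, its match in JUN was fixed in advance, and only the match in ATF3 was open. JUND and MAFF held TGACGTCA, at bases −200 to −193 and −54 to −47, found in 1.65% of windows. In the other members' windows, and for the remaining motifs, these letters were not in the 250 bases searched. The AP-1 site was found in 4.2% of all windows, the STAT5 core in 6.57% and the CArG box in 1.16%. ATF3 and MAFF each have a second window at another start, which held none of these motifs, and counts per gene do not tell which start was used.

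On the length-scaled TPM level, the Jun genes were far more abundant than the Fos genes in both groups. JUN led with 187 ± 25.8 TPM in KO and 125 ± 20.6 TPM in WT (SD, n = 3 each), followed by JUND with 82.8 ± 8.03 TPM in KO and 64.5 ± 5.83 TPM in WT. ATF3 came next with 54.0 ± 24.8 TPM in KO and 20.9 ± 8.63 TPM in WT. BATF3 had 17.7 ± 1.57 TPM in KO and 15.4 ± 1.48 TPM in WT, and JUNB 14.9 ± 2.23 TPM in KO and 11.6 ± 2.07 TPM in WT. These last 2 levels overlapped between libraries in each group, as did those of ATF3 and JUND in KO and of ATF3 and BATF3 in WT. FOS, FOSB, FOSL2 and MAFF lay between 1.29 and 5.62 TPM in the KO libraries and between 0.788 and 3.14 TPM in the WT libraries, with overlapping ranges within each group.

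**Figure D1:**
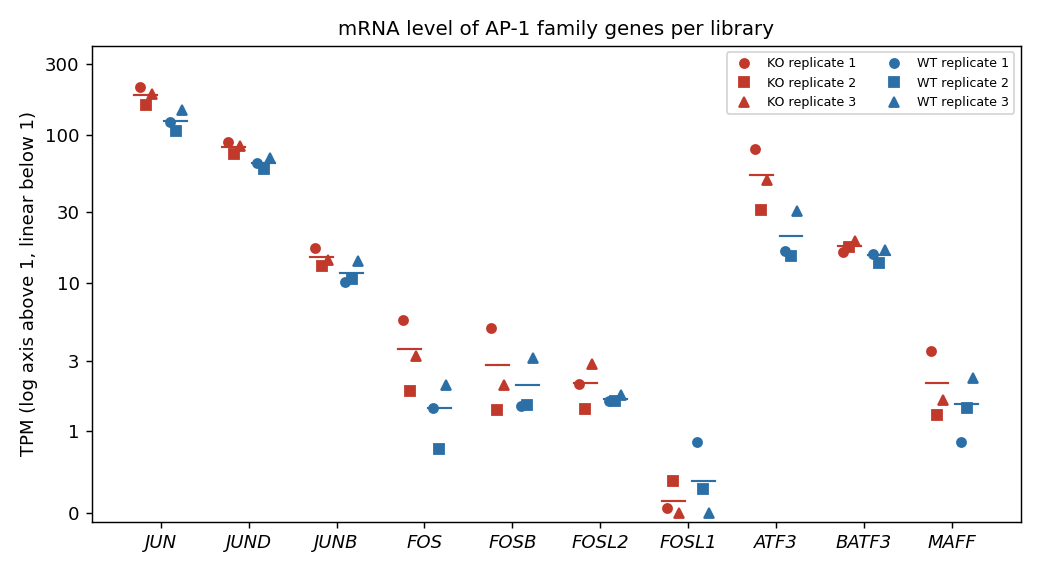
TPM of the 10 genes in each library (y axis, logarithmic above 1 and linear below), KO in red left of WT in blue, with the symbol for the replicate number and a bar for the mean. JUN and JUND lie highest, the Fos genes and MAFF lie at or below 5.62 TPM, and WT replicate 3 is the highest WT library for 9 of the 10 genes.

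Of the 9 tested members 5 rose in KO: ATF3, FOS, JUN, JUND and JUNB (edgeR quasi-likelihood test, adjusted p under 0.05 over 15958 genes). In bulk RNA, a higher level in every cell and in a part of the cells cannot be told apart. The 5 rises are 55.6% of those tested, where 12.1% of all genes tested rose. A member had to have enough counts to be tested. Members were chosen with earlier results of these data known, so these shares are a description and not a test of the family. None of the 9 fell, where 11.4% of all genes did, and 23.4% of all genes were called in either direction. At an unadjusted p under 0.05 the number lower was 0, and it was 0 by DESeq2 and by limma-voom, both of which called the same 5 members higher. The median log2 fold change was 0.46 over the 9 tested members and 0.006 over all genes tested. Without KO replicate 1, WT replicate 1 or WT replicate 2 the number of rises was 3 each time, namely JUN, JUND and ATF3. On effective-length offsets it was also 3, and on log2(TPM + 1) it was 2, JUN and JUND.

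JUN, the most abundant member and the founding subunit of AP-1, had 378, 290 and 339 CPM in KO and 206, 179 and 249 CPM in WT. Every KO library was above every WT library, and the lowest KO value was 1.17 times the highest WT value. This was a 1.58-fold rise (log2 fold change 0.66, SE 0.099, edgeR adjusted p = 2.98e-04). JUN (ENSG00000177606) is encoded on the minus strand of chromosome 1, 58780788 to 58784327 (hg38). The rise held in all 16 alternatives, with log2 fold changes of 0.56 to 0.80 and a highest adjusted p of 0.0333.

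JUND, which in most cells is expressed steadily rather than induced, had 70.6, 58.8 and 66.6 CPM in KO and 48.1, 43.0 and 51.7 CPM in WT. The groups did not overlap, and the lowest KO value was 1.14 times the highest WT value. The 1.37-fold rise (log2 fold change 0.45, SE 0.074, edgeR adjusted p = 5.45e-04) also held in all 16 alternatives, at 0.35 to 0.53. JUND (ENSG00000130522) lies on the minus strand of chromosome 19, 18279760 to 18281622.

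JUNB, an early response subunit that can act against JUN at some promoters, had 14.9, 11.3 and 12.6 CPM in KO and 8.46, 8.71 and 11.4 CPM in WT. The groups overlapped, because WT replicate 3 lay just above KO replicate 2. The rise was 1.35-fold (log2 fold change 0.43, SE 0.131, edgeR adjusted p = 0.0286). The call ended without KO replicate 1 (log2 fold change 0.32, adjusted p = 0.139), without WT replicate 1 (adjusted p = 0.119) and without WT replicate 2 (0.115), with effective-length offsets (0.126), on log2(TPM + 1) (0.177) and on log2(TPM + 0.1) (0.172). JUNB (ENSG00000171223, plus strand of chromosome 19, 12791496 to 12793315) shares exon sequence with HOOK2 on the other strand, and no source used here says whether counting used strand, so reads of the pair may be mixed. HOOK2 itself had 179, 228 and 185 counts in KO and 203, 209 and 209 counts in WT, and was not called.

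FOS, the Fos subunit with the fastest and most transient induction, was low and rose. It had 89, 42 and 63 counts in KO and 26, 16 and 44 in WT, or 5.06, 2.02 and 3.60 CPM in KO and 1.47, 0.839 and 2.17 CPM in WT. KO replicate 2 lay below WT replicate 3, so the groups overlapped. The rise was 2.35-fold (log2 fold change 1.23, SE 0.356, edgeR adjusted p = 0.0220). The call ended without KO replicate 1 (log2 fold change 0.89, adjusted p = 0.131), without WT replicate 1 (adjusted p = 0.0671) and without WT replicate 2 (0.0973). It also ended with effective-length offsets (0.0856), on log2(TPM + 1) (0.122), where the log2 fold change was 0.86, and on log2(TPM + 0.1) (0.121). FOS (ENSG00000170345) lies on the plus strand of chromosome 14, 75278774 to 75282230.

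The other Fos genes did not pass. FOSB, a close relative of FOS, had 6.70, 3.12 and 4.4 CPM in KO and 3.05, 3.20 and 3.99 CPM in WT, giving a log2 fold change of 0.46 (SE 0.243, edgeR adjusted p = 0.198). KO replicate 1 was its highest library, and the value was 0.13 without that library and 0.70 without KO replicate 2, where it passed (adjusted p = 0.0388). FOSL2, also called FRA2, had 8.46, 5.86 and 6.63 CPM in KO and 6.04, 6.14 and 6.79 CPM in WT, a log2 fold change of 0.14 ± 0.145 (SE, edgeR adjusted p = 0.551) that was −0.024 without KO replicate 1. FOSL1, also called FRA1 and often high in transformed epithelial cells, had 1, 5 and 0 counts in KO and 7, 3 and 0 in WT and was under the level tested.

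ATF3, a stress-induced factor that pairs with Jun proteins and can repress or activate, had the largest fold change of the 9 tested members. It had 76.2, 36.0 and 53.4 CPM in KO and 17.6, 14.6 and 30.02 CPM in WT. The groups did not overlap, but both were spread: the highest library was 2.12 times the lowest in KO and 2.06 times in WT. The rise was 2.63-fold (log2 fold change 1.39, SE 0.247, edgeR adjusted p = 0.00104). It was 1.09 without KO replicate 1 and 1.77 without WT replicate 3, passing both times, and 14 of 16 alternatives kept the call. Those that ended it were log2(TPM + 1) and log2(TPM + 0.1), with adjusted p of 0.0573 and 0.0563. ATF3 (ENSG00000162772) lies on the plus strand of chromosome 1, 212565334 to 212620777.

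BATF3 and MAFF were not called. BATF3 (ENSG00000123685), the neighbour of ATF3 on the other strand at 212686418 to 212699985, had 6.76, 7.92 and 8.06 CPM in KO and 6.49, 5.87 and 6.84 CPM in WT, with a log2 fold change of 0.24 ± 0.123 (SE, edgeR adjusted p = 0.176). MAFF had 4.54, 1.68 and 2.11 CPM in KO and 1.07, 1.57 and 2.71 CPM in WT. Its log2 fold change of 0.61 ± 0.382 (SE, edgeR adjusted p = 0.279) was 0.069 without KO replicate 1 and 1.05 without WT replicate 3. For both genes the groups overlapped.

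**Figure D2:**
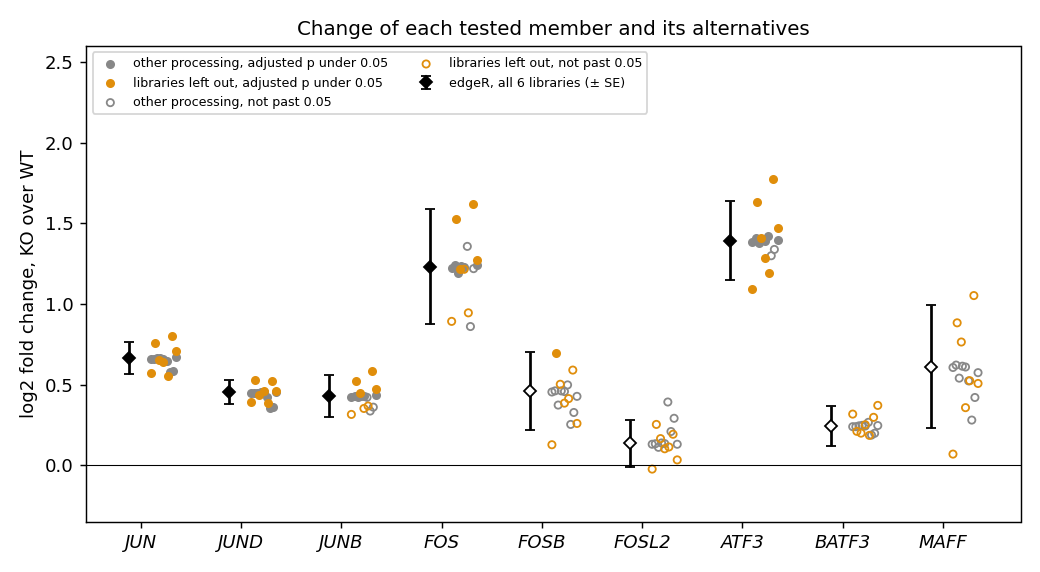
Log2 fold change of KO over WT for the 9 tested members (y axis), with the edgeR estimate and its SE as a diamond, other processing in grey and fits with libraries left out in orange, filled where the adjusted p was under 0.05. JUN and JUND stay filled throughout, ATF3 is filled in 14 of 16, and FOSL2 reaches −0.024.

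Libraries of 1 group differed in the same direction for most members. KO replicate 1 was the highest library for 8 of the 10 members, and WT replicate 3 was the highest WT library for 9 of 10. The 10 include FOSL1, which had at most 7 counts in any library. How often these libraries stood highest over all genes tested was not counted, so the order cannot be called particular to the members. For JUN, JUND and ATF3 the order was the same, with KO replicates 1, 3 and 2 and then WT replicates 3, 1 and 2 from high to low. Groups did not overlap for 3 of the 9 tested members, where KO was wholly above WT for 19.9% of all genes tested. Total counts did not run in this order: KO replicate 1 held 17613140 and WT replicate 3 held 20279181, the most of its group. The mitochondrial share was 1.94%, 2.43% and 1.38% in KO and 1.76%, 1.97% and 1.67% in WT. What set the order among libraries of a group was not tested. When KO replicate 1 and WT replicate 3 were both left out, a choice made after seeing the data, the same 5 members rose, with a log2 fold change of 1.47 for ATF3.

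**Figure D3:**
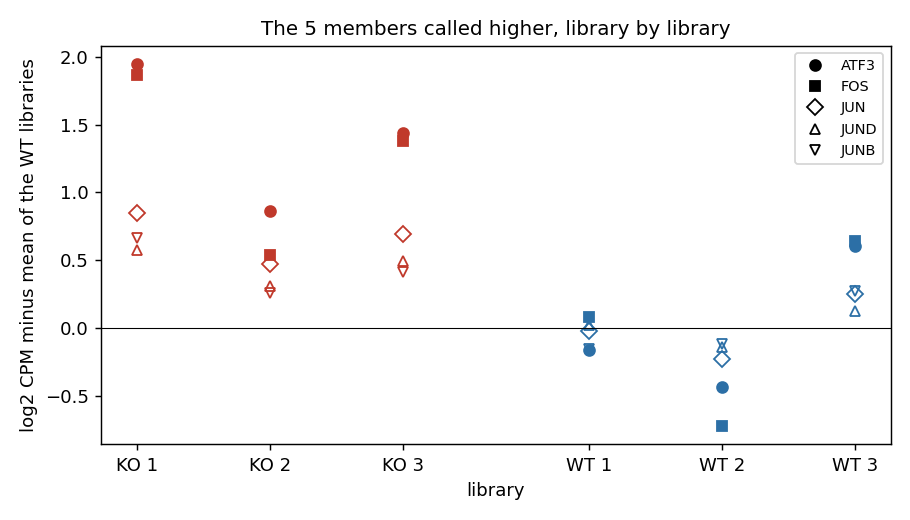
Log2 CPM minus the mean of the WT libraries (y axis) for the 5 members called higher, in each KO library (red) and each WT library (blue). ATF3 and FOS vary most between libraries of a group, and KO replicate 1 and WT replicate 3 stand highest in their groups for each of the 5 genes.

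Among the Jun genes, JUN itself took 66.3%, 64.7% and 65.9% of the summed Jun TPM in KO and 62.0%, 60.5% and 63.5% in WT. The JUN share was thus higher in every KO library, by small steps. JUND took 28.3% to 30% in KO and 30.4% to 33.4% in WT, and JUNB 5.01% to 5.44% in KO and 5.19% to 6.08% in WT. The Fos genes together reached 12.7, 5.08 and 8.08 TPM in KO and 5.39, 4.19 and 6.95 TPM in WT. Summed Jun mRNA exceeded summed Fos mRNA 25.0 to 48.7 times in KO and 33.3 to 42.0 times in WT, so these ranges overlapped. TPM of the Fos genes depends on the effective length assigned in each library, which was uneven. For FOSB it was 2063.73 bases in KO replicate 1 and 2062.42 in WT replicate 3, but 3348.47 and 3353.16 in the other KO libraries and 3362.92 and 3452.16 in the other WT libraries. For FOSL2 it was 3618.59 bases in KO replicate 3 and at least 6211.81 in each other library, and for FOS 1377.23 in KO replicate 1 and at least 1619.71 in each other library. These shares are descriptions without a test.

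ATF3, BATF3 and JUN lie on chromosome 1, where the typical gene was slightly higher in KO. The median log2 fold change of the other tested genes there was 0.15 over 1573 genes. The 50 nearest tested genes had a median of 0.16 around ATF3, 0.16 around BATF3 and 0.15 around JUN. The value for ATF3 was 1.24 above its neighbours' median, for JUN 0.52 above and for BATF3 0.089 above. For JUND, JUNB and FOS, on chromosomes 19 and 14, the neighbours had medians of −0.030, −0.016 and −0.017. The part of this chromosome-wide difference in the members' values was not tested.

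Partners and relatives of AP-1 in the bZIP family went both ways. Of 17 tested ATF, CREB, BATF and JDP genes outside the members, 5 rose and 4 fell, or 29.4% and 23.5%, beside 12.1% and 11.4% of all genes, with a median log2 fold change of 0.14. The 5 rises were 3 with effective-length offsets and 2 on the TPM scales, and the 4 falls were 2 with the offsets and without KO replicate 3, WT replicate 2 or WT replicate 3. CREB5, which can pair with JUN, rose by 0.71 to 58.5 ± 3.49 CPM in KO, against 35.6 ± 2.24 CPM in WT (edgeR adjusted p = 4.08e-06). ATF4, the main effector of the integrated stress response and an inducer of ATF3, rose by 0.31 (3.15e-05), and ATF1 by 0.30 (0.00349). CREBZF, ATF5 and ATF6B fell, with log2 fold changes of −0.26, −0.43 and −0.19. DDIT3, the stress factor CHOP, was among those that rose, with a log2 fold change of 0.69, and is named after its values were seen. The calls of CREB5, ATF4, CREBZF and ATF5 held in all 16 alternatives. ATF1 kept its call in 12, losing it among others with effective-length offsets and on the TPM scales, and ATF6B kept its call in 11, losing it among others without KO replicate 3, WT replicate 2 or WT replicate 3.

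Among 20 tested MAF, CNC, BACH, CEBP and PAR bZIP genes 5 rose and 2 fell, or 25% and 10%. Of all genes 12.1% rose and 11.4% fell, the second close to the 10% here. With effective-length offsets and on the TPM scales 2 rose and 1 fell. XBP1, a factor of the unfolded protein response, rose by a log2 fold change of 0.52 (edgeR adjusted p = 1.67e-04) and NFIL3, a bZIP repressor, by 0.60 (6.68e-04). CEBPB, a partner of ATF and AP-1 proteins, rose by 0.35, a call that ended with effective-length offsets and on the TPM scales. BACH1, a repressor that pairs with small MAF proteins, fell by 0.20 on the log2 scale, a call that ended under the same alternatives as that of CEBPB. NFE2L2 (NRF2), another partner of small MAF proteins, did not pass, with a log2 fold change of 0.15 (edgeR adjusted p = 0.0563).

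Of 24 tested immediate early genes outside AP-1, 5 rose, 1 fell and 18 did not pass. The shares of 20.8% and 4.17% stand beside 12.1% and 11.4% of all genes, and the median log2 fold change was 0.10. The number that rose was 3 without WT replicate 1 and with effective-length offsets, and 1 on the TPM scales. IER3 rose by 0.75 (edgeR adjusted p = 0.00173), with 19.1, 13.8 and 16.1 CPM in KO and 9.03, 7.92 and 11.9 CPM in WT, the library order seen for JUN and ATF3. BTG2, an antiproliferative gene on chromosome 1, rose by 0.44 and KLF10, a zinc finger factor, by 0.25, and both calls ended on the TPM scales. IER2 fell by 0.38 (edgeR adjusted p = 0.00259). EGR1, the zinc finger gene that serum induces together with FOS, had 10.8, 4.90 and 8.34 CPM in KO and 6.43, 7.87 and 8.86 CPM in WT, with a log2 fold change of 0.033 that did not pass, and is named for its known link to FOS.

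Of 32 tested MAP kinases and upstream kinases 2 rose and 7 fell, or 6.25% and 21.9%, beside 12.1% and 11.4% of all genes, with a median log2 fold change of −0.054. The 7 falls were 4 by DESeq2, on the TPM scales and without WT replicate 1 or WT replicate 3, and 3 without WT replicate 2. With effective-length offsets 1 rose and 1 fell, and on the TPM scales 0 rose. MAPK3 (ERK1) and its activator MAP2K1 (MEK1) rose by 0.23 each, calls that ended on the TPM scales and, for MAP2K1, with effective-length offsets. The p38 kinase MAPK13 fell by 0.28, and RPS6KA4 (MSK2), a histone kinase of immediate early genes, by 0.37 (edgeR adjusted p = 0.00136). The MAPK13 call ended with effective-length offsets and on the TPM scales, and the RPS6KA4 call with the offsets. The JNK genes MAPK8 and MAPK9, whose products phosphorylate JUN, did not pass, with log2 fold changes of 0.014 and 0.063. The JNK gene MAPK10 did not pass either, with a log2 fold change of −0.695 (edgeR adjusted p = 0.0972). It was low, with 29, 20 and 25 counts in KO and 41, 49 and 33 in WT.

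Serum response factor SRF, which drives FOS transcription, and ELK4, one of its cofactors, were called lower, by 0.13 and 0.15 on the log2 scale (edgeR adjusted p = 0.0338 and 0.0283). They were the 2 of 6 tested genes of that list to pass, or 33.3%, where 11.4% of all genes fell and 12.1% rose. SRF kept its call in 7 of 16 alternatives and ELK4 in 8. The list had 0 falls with effective-length offsets and without KO replicate 1 or any 1 of the WT libraries. The number that rose was 0 by edgeR, by limma-voom and by DESeq2, and 0 before adjustment. Of 13 genes that control JUN and FOS protein turnover or modification, 3 rose and 1 fell, or 23.1% and 7.69%. These shares stand beside 12.1% and 11.4% of all genes. The number that rose was 1 by DESeq2 and without KO replicate 2, WT replicate 1 or WT replicate 2, and 0 with effective-length offsets and on the TPM scales, and 2 fell without KO replicate 2 or KO replicate 3. COP1, a ubiquitin ligase for JUN on chromosome 1, rose by 0.21 (edgeR adjusted p = 0.00490), a call that ended with effective-length offsets and on the TPM scales.

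AP-1 target genes were expressed at enough counts in 15 of 28 cases, and of those 6 rose, 1 fell and 8 did not pass. This is 40% that rose and 6.67% that fell, beside 12.1% and 11.4% of all genes, with a median log2 fold change of 0.13. The 6 rises were 3 with effective-length offsets and on the TPM scales, and 3 genes fell without WT replicate 3. CXCL8, a chemokine, had 5.28, 1.73 and 3.71 CPM in KO and 0.564, 0.577 and 1.13 CPM in WT. GADD45A, a growth arrest gene on chromosome 1, had 43.5, 31.8 and 37.8 CPM in KO and 17.8, 16.7 and 20.9 CPM in WT. In both, KO replicate 1 and WT replicate 3 again stood highest in their groups and the groups did not overlap. The log2 fold changes were 2.20 for CXCL8 (edgeR adjusted p = 0.00134) and 1.02 for GADD45A (2.02e-05). VEGFA, an angiogenic factor, rose by 0.54 and CCND1, cyclin D1, fell by 0.67 (6.81e-05), and each of these 4 calls held in all 16 alternatives. The metalloproteinases MMP1, MMP3 and MMP13, textbook AP-1 targets, had at most 1 count in any library. Which of these genes AP-1 controls in these cells was not measured.

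**Figure D4:**
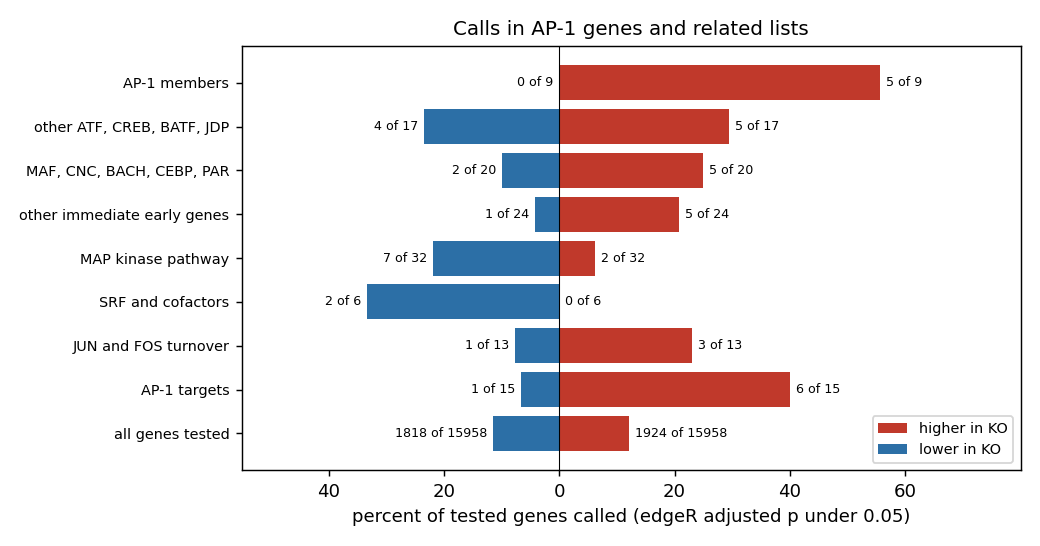
Percent of tested genes called higher (red, to the right) or lower (blue, to the left) in KO against WT in each list, with counts beside the bars, edgeR adjusted p under 0.05. AP-1 members reach 5 of 9 higher and 0 of 9 lower, MAP kinases 2 of 32 higher and 7 of 32 lower, and all genes 12.1% higher and 11.4% lower.

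The genes most like ATF3 across the 6 libraries included JUN, and those most like JUN included JUND. Likeness was the Pearson correlation of log2 CPM over 6 libraries, given as a description, since the points share the group difference and few libraries give many high values (162 genes of 11257 above 0.95 for ATF3 and 212 for JUN). The nearest to ATF3 were PDIA4 (0.998), IER3 and PYGL (0.997 each), FOXB1 (0.995) and JUN (0.993). The nearest to JUN were IER3 (0.998), VEGFA, PYGL and YPEL5 (0.997, 0.997 and 0.997) and JUND (0.995). Their changes were of different size: PDIA4, an endoplasmic reticulum disulfide isomerase, rose by 0.13 (edgeR adjusted p = 0.0248) and the glycogen phosphorylase PYGL had a log2 fold change of 0.094, which did not pass (edgeR adjusted p = 0.0544).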

How the data were processed

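The 6 deposited files held, per the file headers, 1 row per gene with length, effective length, TPM and estimated count. FastQC, fastp, DRAGEN, Picard and hg38 appear, without versions, per the submitters' processing notes. How reads were assigned, and to which annotation release, no source used here gives. The estimated counts deposited by the authors were rounded to whole numbers (7.12% to 7.64% of values were not whole), and the deposited TPM summed to 1000000 per library. Of 60609 identifiers 60340 matched the name table and 42044 of them a symbol. GENCODE annotation on hg38 gave positions.

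Counts were tested with edgeR 4.0.16 in R 4.3.3 (filterByExpr with minimum count 10 and minimum total 15, TMM, quasi-likelihood F test of group, Benjamini-Hochberg adjustment over 15958 genes, threshold 0.05), after a test on simulated data. The biological coefficient of variation was 4.43%. Replicates differed by more than sampling noise (chi-square per degree of freedom 2.45 to 7.50). Alternatives used RLE scaling, DESeq2 1.42.0, limma-voom (limma 3.58.1), no filter or 1 CPM in 3 libraries, effective-length offsets, limma on log2(TPM + 0.1) and log2(TPM + 1), a replicate block, and each library left out. The 16 alternatives counted above also include the fit without KO replicate 1 and WT replicate 3, chosen after seeing the data. Where a library was left out, the spread was pooled over both groups. Members and lists were chosen with earlier results of these data known. All members were named, with up to 3 rises and 3 falls of smallest p per list and the 5 genes most like ATF3 and JUN. DDIT3, EGR1, NFE2L2, the JNK genes and the metalloproteinases were named outside this rule. Some genes that the rule names are not reported here.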

Additional observations from a re-analysis of the deposited data

How the results depend on the processing

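All 5 rises of AP-1 members kept their direction in the 16 alternatives, and JUN and JUND kept their call in each. The number of members called, all higher, was 5 in the main test, 2 on both TPM scales, 3 using effective-length offsets, and 3 to 6 when 1 library was left out. Over all genes the test called 3742 (1924 higher, 1818 lower), and 2618 to 3575 (1339 to 1789 higher, 1279 to 1786 lower) when 1 library was left out. Effective-length offsets gave 1735 (891 and 844), log2(TPM + 1) 1623 (488 and 1135) and log2(TPM + 0.1) 1622 (483 and 1139). The higher share of calls was 51.4% in the main test, 30.1% on log2(TPM + 1) and 29.8% on log2(TPM + 0.1), scales that moved the median of all genes to −0.059 and −0.067. Leaving out KO replicate 1 and WT replicate 3 together, chosen after seeing the data, gave 2380 (1232 and 1148), with fewer samples. FOSL2 ranged over −0.024 to 0.253 when 1 library was left out and was negative only without KO replicate 1. What caused the shifts between settings was not tested. With no low-count filter the 5 members kept their calls, and adjusted p were smaller for some genes and larger for others. By edgeR, adjusted p there was 1.66e-70 for JUN, 1.40e-93 for ATF3 and 1.22e-14 for JUND. In the main test these were 2.98e-04, 0.00104 and 5.45e-04. With 3 libraries per group values that small cannot be taken at face value, and passing in this setting says little about stability. Over all tested genes replicate numbers did not pair the libraries. Deviations from the group means correlated by −0.012, 0.11 and 0.037 for replicates 1, 2 and 3. Of these numbers 1 of 3 matched best with itself. For JUN, JUND, ATF3 and FOS, replicate 2 was the lowest library in both groups. With the replicate block 3660 genes were called, 5 of them members. The edgeR adjusted p was then lower for ATF3 (5.47e-05), JUN (9.53e-06) and FOS (0.00416), and higher for FOSL2, BATF3 and MAFF. Of 34 genes that the naming rule took from other lists, marker lists included, 15 passed in every alternative. FOS, FOSB and MAFF had 16 to 118 counts per library, which limits their precision.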
